A study of Rattus norvegicus with 14 samples.

Results

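Transcription start sites (TSSs) in the parental S16 Schwann cell line were compared with those in control primary Schwann cells, using 2 S16 and 3 control libraries out of the 14 Tn5Prime libraries of the series. Tn5Prime reads the 5′ ends of transcripts, so that each value is the number of reads starting in a TSS cluster, scaled to the depth of its library (RPM, a normalised read count). The table covers 4993 candidate TSSs that are active in rat sciatic nerve and lie near H3K4me3 peaks overlapped by SOX10 binding. Of these, 3972 (79.6%) exceeded 1 RPM in at least 2 of the 5 libraries and were compared, and the other 1021 were under that minimum. The TSSs compared belong to 2812 named genes, and 157 of them carry no gene symbol.

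S16 is an immortalized line of rat Schwann cells of wild-type genotype, and its 2 libraries are separate RNA samples of the same line grown in medium with 10% fetal bovine serum (FBS). The control cells are wild-type primary rat Schwann cells given vehicle, with 1 library from each of 3 independent populations. They had been expanded with neuregulin and forskolin, plated on poly-L-lysine and laminin, deprived of both factors and then kept in 5% FBS. The strain and age of the source animals are not given in the sources used here. S16 libraries were read on a HiSeq and the primary cell libraries on a NovaSeq instrument. Line, medium and sequencer therefore change together and cannot be told apart, and only large changes are described as such. Levels in adult wild-type sciatic nerve, in primary cells treated with 250 uM CPT-cAMP for 3 days and in 4 S16 clones edited in Sox10 (ΔSOX10) are given beside some values. The cAMP-treated and ΔSOX10 groups have the control and parental libraries used here as their own references, so those values stand beside the comparison and are not independent of it.

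Schwann cells ensheathe the axons of peripheral nerves, and the myelinating form wraps them in a membrane rich in lipids and a few abundant proteins. The transcription factor SOX10 is needed throughout the lineage, EGR2 drives the myelinating state, and JUN marks immature cells and cells that respond to injury. Cultured primary cells without axons or a cAMP signal are known to keep features of the immature state, and immortal lines can depart from the cells they came from.

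The labelled cell type was checked against 12 Schwann cell markers, of which 11 have a candidate TSS among those analysed here. Their summed levels were 4280 and 4027 RPM in the S16 libraries and 5985, 5858 and 6030 RPM in the control libraries. The most abundant of them was Ngfr, the low-affinity neurotrophin receptor of immature Schwann cells. Sox10 itself stood at 90.7 and 77.5 RPM in S16 cells and at 136, 149 and 140 RPM in control cells. Sox10, Ngfr, S100b, Erbb3, Mbp and Cnp were present in all 5 libraries, whereas Egr2 and Mag had at most 1 read in any control library and Prx had none in any of the 5. The Pmp22 TSS used as a marker was at 0, 1.82 and 2.04 RPM in control cells. The sum takes 1 TSS per gene and so leaves out the other Pmp22 TSSs. Over all its tested TSSs, Pmp22 was at 6687 RPM in S16 cells and 471 RPM in control cells. With that total in the sum, S16 cells would be the higher group, so the order of the groups rests on the Pmp22 TSS counted. Sox10 was lower in S16 cells by a log2 fold change of -0.75 ± 0.13 (SE; limma, adjusted p = 0.000765), which is not a large change.

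Markers of other cell types were sparse among the candidate TSSs. Of 10 fibroblast markers, Col1a1 and Pdgfra are represented, and their sum was 2771 and 2201 RPM in S16 cells against 790, 891 and 892 RPM in control cells, nearly all of it Col1a1. The 2 macrophage and leukocyte markers present, Cd48 and Csf1r, summed to 157 and 130 RPM against 157, 143 and 168 RPM. Pdgfrb, the only mural marker of 8, was at 3.14 and 5.52 RPM in S16 cells and at 1.91, 0.489 and 0.33 RPM in control cells. No endothelial, neuronal or melanocyte marker fixed for this check has a TSS among those analysed. Whether such cells contribute to the primary cultures was not tested, and in bulk RNA fewer cells of a type and less RNA per cell cannot be told apart.

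Total reads were 44237083 and 38577603 in the S16 libraries and 57119858, 65432361 and 51438602 in the control libraries, of which 35.0% to 36.2% fell in candidate TSSs. The correlation of log2 values across the TSSs was 0.961 between the S16 libraries, 0.953 to 0.955 among the control libraries and 0.859 to 0.871 between groups. The TSSs share their libraries and these values only describe them. The median standard deviation within a group was 0.23 on the log2 scale for S16 cells and 0.30 for control cells. Replicate libraries differed by far more than sampling noise, with a chi-square per degree of freedom of 59.4 for the S16 pair and 83.9 to 103 for the control pairs, so that all 5 were kept as separate samples.

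A change was called where limma's adjusted p was under 0.05, and a called change was termed large where its log2 fold change was at least 2 in either direction. Fold changes are those of log2(RPM + 1) and understate the change of weak TSSs. Large changes comprised 111 TSSs of 79 genes higher in S16 cells, 2.79% of those tested, and 166 TSSs of 141 genes lower in S16 cells, 4.18%. No gene had large changes in both directions. All 277 large changes separated the 2 S16 from the 3 control libraries without overlap, as did 56.2% of all TSSs tested. By the adjusted p alone, 524 TSSs (13.2%) were higher and 872 (22%) lower. The p-values measure the spread between these libraries, which for S16 cells are of 1 line.

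The median log2 fold change over all TSSs was -0.18. Scaling by the trimmed mean of M values (TMM) moved it to -0.01 and the large changes to 130 higher and 131 lower, so that the share of higher ones went from 40.1% to 49.8%. Of the 277 large changes, 242 stayed large under that scaling and none changed sign. Leaving out the first S16 library left 64 TSSs with a large change to higher levels, and leaving out the second left 74. The corresponding numbers of lower TSSs were 163 and 139.

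**Figure D1:**
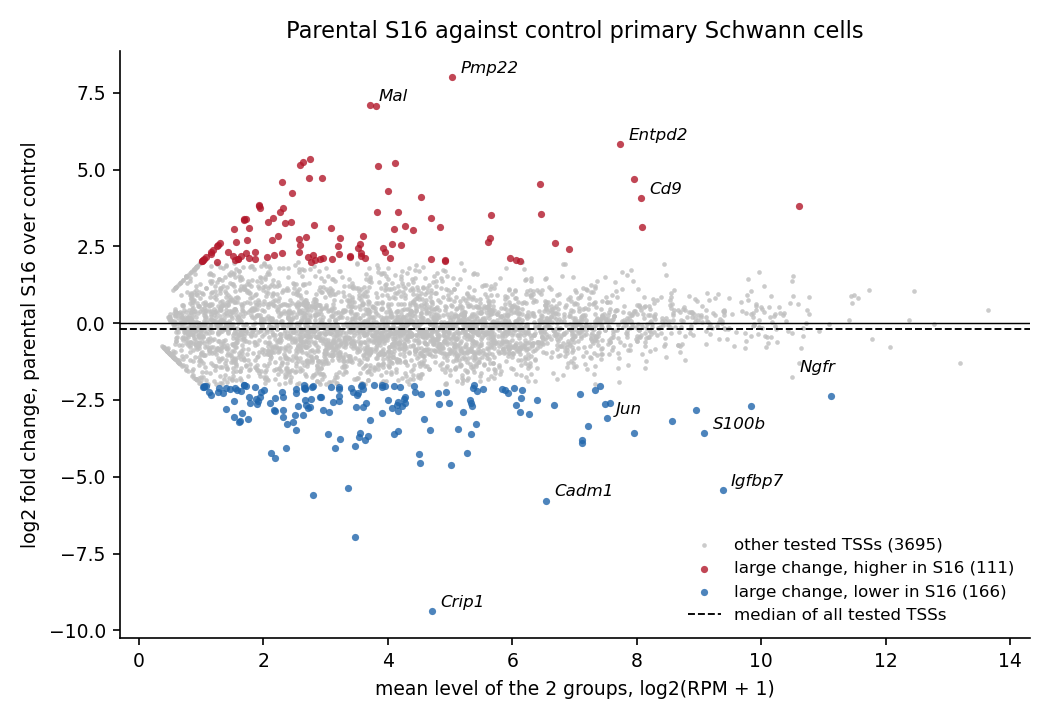
Each point is 1 of 3972 TSSs, with the mean level of both groups in log2(RPM + 1) on the x axis and the log2 fold change of parental S16 over control cells on the y axis. The 111 TSSs with a large change to higher levels are red, the 166 to lower levels are blue, and the dashed line marks the median of -0.18.

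Large changes were compared with all TSSs for features that did not enter the fit. TSSs higher in S16 cells had a median of 15.7 RPM in sciatic nerve, those lower in S16 cells had 8.24 RPM, and all tested TSSs had 9.43 RPM. The share above 100 RPM in nerve was 21.6% of the higher, 7.83% of the lower and 9.04% of all TSSs. A SOX10 peak overlapped 48.6% of the higher and 58.4% of the lower TSSs, against 59.0% of all. The strongest nerve TSS of its gene made up 57.7% of the higher, 74.1% of the lower and 70.2% of all TSSs. These shares are descriptions, since several TSSs of a gene are not independent.

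By log2 fold change, the myelin gene Pmp22 had the largest increase of any named gene, at its upstream TSS. By the ratio of mean RPM this TSS was at 407, under several others such as Mal at 1260 and Mag at 6792. The Mag ratio rests on a single read in the 3 control libraries, so its size is uncertain. Pmp22 encodes a compact myelin membrane protein, is known for its separate promoters, and its duplication causes a hereditary neuropathy. Its upstream TSS (rn5 chr10:49316968-49317054, plus strand) was at 534 and 514 RPM in S16 cells and at 0, 1.82 and 2.04 RPM in control cells. The log2 fold change was 8.002 ± 0.43 (SE; limma, adjusted p = 1.43e-08). The level was 36231 RPM in sciatic nerve, 19.5 RPM in cAMP-treated primary cells and 0.743 RPM in the ΔSOX10 clones. The S16 value thus lay far above both primary cell groups and far under the nerve.

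A second Pmp22 TSS, at chr10:49319494-49319573, carried more RNA in both groups. It was at 5870 and 5840 RPM in S16 cells against 451, 394 and 391 RPM in control cells, a log2 fold change of 3.83 ± 0.08. Of the 11 Pmp22 TSSs tested, all were positive and 6 were large, with log2 fold changes from 0.41 to 8.002.

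Mal, a raft-associated proteolipid of myelin-forming membranes, showed the next largest increase by log2 fold change. Its TSS at chr3:127099236-127099366 is listed on the plus strand, whereas RefSeq places the gene on the minus strand in the newer GRCr8 build, and this difference was not resolved. The TSS was at 148 and 159 RPM in S16 cells and at 0.035, 0.214 and 0.117 RPM in control cells, a log2 fold change of 7.11 ± 0.43 (limma, adjusted p = 4.72e-08). Bcas1, a gene of newly myelinating glia, was at 50.4 and 35.0 RPM against 0, 0.107 and 0.0583 RPM. Mag encodes the myelin-associated glycoprotein of the membrane that faces the axon. It was at 35.6 and 33.6 RPM in S16 cells, while the control libraries held at most 1 read of it. The log2 fold change was 5.35 for Bcas1 and 5.15 for Mag. Levels in cAMP-treated primary cells, where these genes were also present, were 371 RPM for Mal, 134 RPM for Bcas1 and 30.6 RPM for Mag.

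The other myelin genes changed less or not in the same direction. Mbp, the myelin basic protein, was at 356 and 288 against 194, 212 and 239 RPM, with a log2 fold change of 0.58 that lost its call without the first S16 library. Cmtm5 was lower, at 93.7 and 86.7 against 239, 196 and 248 RPM. The main TSS of Cnp, an enzyme of non-compact myelin, was at 468 and 400 against 459, 483 and 530 RPM, and its log2 fold change of -0.18 became 0.03 under TMM scaling.

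Cnp differed at another of its TSSs. The one at chr10:88284861-88284975 was at 138 and 114 RPM in S16 cells and at 1165, 1143 and 1125 RPM in control cells, a log2 fold change of -3.18 ± 0.09. Of 12 myelin genes tested by their main TSS, 4 were large and higher and none was large and lower, beside 2.29% and 4.41% of all 2790 main TSSs. By the adjusted p, 6 were higher and 2 lower, beside 14.1% and 26.4% of all main TSSs. The median over the list was 0.20 against -0.23 over all main TSSs, and both rose under TMM scaling. It was 0.333 without the second S16 library and 0.0565 with main TSSs chosen by their level in the compared groups. The main TSS of a gene is the one with the highest level in nerve, which enters no comparison here.

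Among transcription regulators, Egr2 and Jun moved in opposite directions. Egr2, the activator of the myelin programme, was at 21 and 8.40 RPM in S16 cells and at no more than 1 read in each control library, a log2 fold change of 3.83 ± 0.59 (limma, adjusted p = 0.000228). Jun was at 74.2 and 52.4 RPM in S16 cells and at 606, 541 and 475 RPM in control cells, a log2 fold change of -3.09 ± 0.15 (limma, adjusted p = 4.03e-09). Cited2, a transcriptional coregulator, was at 79.9 and 73.6 against 460, 459 and 486 RPM. In cAMP-treated primary cells the mean levels were 34.0 RPM for Egr2, 60.8 RPM for Jun and 19.96 RPM for Cited2.

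Of 13 regulators tested, 1 was large and higher and 2 were large and lower, with 4 called higher and 6 called lower in all. Over all main TSSs, 2.29% and 4.41% were large and 14.1% and 26.4% were called. The inhibitors of differentiation Id2, Id3 and Id4 were lower by log2 fold changes of -1.33, -0.78 and -1.45. Hes1, a Notch target, and Snai2, a factor of neural crest migration, were higher by 1.895 and 1.93. The list's median of -0.08 turned to 0.12 under TMM scaling and was -0.187 without the first S16 library and -0.255 to -0.0483 with each control library left out.

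Genes for adhesion and axon-glia signalling changed in both directions. Cd9, a tetraspanin, was at 1160 and 1050 RPM in S16 cells against 58.4, 67.9 and 67.0 RPM, a log2 fold change of 4.08 ± 0.12 (limma, adjusted p = 1.83e-11). Cadm1, a nectin-like adhesion molecule, was at 14.6 and 9.25 against 730, 700 and 648 RPM, a log2 fold change of -5.78 ± 0.16. S100b, a calcium-binding protein used as a Schwann cell marker, was at 162 and 151 against 1915, 1811 and 1911 RPM, a log2 fold change of -3.58 ± 0.08. In each of these genes the difference was many times the spread within either group.

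Ngfr was at 792 and 780 RPM in S16 cells against 2694, 2587 and 2583 RPM in control cells, a log2 fold change of -1.74 ± 0.06. Erbb3, the neuregulin receptor, was at 21.6 and 24.1 against 41.6, 49.6 and 56.4 RPM, and its call was lost without the first S16 library. Itgb8, an integrin chain, was large and lower at its main TSS, at 3.59 and 5.13 against 51.2, 69.2 and 58.9 RPM. Dag1, the dystroglycan gene, was lower by a log2 fold change of -2.24, while Sostdc1 and Tgfbr3 were higher by 2.84 and 2.13. Of 23 genes in the list, 3 were large and higher and 4 were large and lower, beside 2.29% and 4.41% of all main TSSs. Its median of -0.47 was -0.236 without the first S16 library and -0.712 without the second.

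Extracellular matrix genes held 6 large increases among 17 tested and 1 large decrease, beside 2.29% and 4.41% of all main TSSs. Their median was 0.31, and 0.789 without the second S16 library. Col6a1, a chain of collagen VI, was at 177 and 147 RPM in S16 cells and at 0, 0 and 0.758 RPM in control cells, a log2 fold change of 7.07 ± 0.46 (limma, adjusted p = 7.98e-08). Its level was 24.3 RPM in the ΔSOX10 clones and 0 in cAMP-treated cells. Timp3, an inhibitor of matrix proteases, was at 878 and 745 against 97.2, 103 and 74.5 RPM, a log2 fold change of 3.14. Prelp, Lamb1, Chadl and Vwa1 were the other large increases, at 4.23, 2.84, 2.79 and 2.62. Tgfbi, a secreted adhesion protein, was at 43.6 and 48.0 against 421, 527 and 473 RPM, a log2 fold change of -3.34.

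Of the collagen I chain, the main TSS of Col1a1 was at 2770 and 2200 against 790, 891 and 892 RPM, a log2 fold change of 1.53 ± 0.09. Col1a1 is also the fibroblast marker that dominates the sum given above, and its part in the difference was not tested.

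The largest changes outside these lists were spread over many functions. Entpd2, an enzyme that hydrolyses extracellular ATP, was at 1680 and 1520 RPM in S16 cells against 25.02, 23.9 and 34.0 RPM, a log2 fold change of 5.82 ± 0.15 (limma, adjusted p = 1.18e-11). All 4 Entpd2 TSSs tested were large and higher. Paqr6, a progestin receptor family member, was at 113 and 96.6 against 0.28, 3.74 and 2.74 RPM. Ifitm2, an interferon-induced membrane protein, was at 407 and 432 against 29.2, 9.81 and 17.1 RPM.

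Prss12, a secreted protease, and Pdlim2, a PDZ-LIM protein, were higher by log2 fold changes of 4.72 and 4.10. A weak TSS of Cryab, at chr8:53775855-53775863, was higher by 4.72, whereas the main TSS of this small heat shock protein was higher by 0.81 at 3930 and 4010 against 2293, 2224 and 2279 RPM. Egfl8, which encodes an EGF-like protein, had 5 large TSSs among 8 tested. Its main TSS was at 327 and 276 against 22.5, 31.1 and 21.6 RPM.

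In the other direction, Crip1, a small LIM-domain protein, was nearly absent from S16 cells. Its TSS at chr6:146959527-146959677 held 0 and 0.0259 RPM there, the latter a single read, against 693, 661 and 663 RPM in control cells. The log2 fold change was -9.38 ± 0.18 (limma, adjusted p = 8.09e-13). It was also at 0 in all ΔSOX10 clones, and at 2034 RPM in cAMP-treated primary cells and 1093 RPM in nerve. The neighbouring gene Crip2 was instead higher, at 632 and 587 against 197, 180 and 241 RPM.

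Dnm3, a dynamin family GTPase, had no read in either S16 library at its TSS and 112, 123 and 134 RPM in control cells. Against a floor of 3 reads per library it was at least 1690-fold lower. The TSS of the linker histone H1f0 at chr7:120254438-120254513 was likewise at 0 and at least 646-fold lower, while its main TSS was at 73.3 and 68.7 against 450, 456 and 436 RPM. A TSS of Hspa2, an HSP70 family member, was at 0 in S16 cells and at least 250-fold lower than its 13.9, 21.7 and 19.1 RPM in control cells.

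Igfbp7, a secreted IGF-binding protein, showed the largest loss in RPM among these genes. It was at 81.1 and 123 RPM in S16 cells and at 3686, 5559 and 4166 RPM in control cells, a log2 fold change of -5.45 ± 0.17 (limma, adjusted p = 3.68e-11). All 3 of its TSSs were large and lower. In cAMP-treated primary cells it was at 14.1 RPM and in nerve at 90.6 RPM, so the control cells were the high group. Ckb, the brain-type creatine kinase, was lower at its strongest TSS at 365 and 354 against 2423, 2203 and 2327 RPM, and 3 of its 5 TSSs were large.

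Npdc1, Sema4c, Mgst2 and Mfap3l complete the named decreases, with log2 fold changes of -4.63, -4.23, -4.54 and -4.07. Car11, a carbonic anhydrase-related gene, had 4 large TSSs of 4 tested, all lower. The main candidate TSS of Arpc1a, a gene for a subunit of the actin-nucleating Arp2/3 complex, was at 40.9 and 30.3 against 561, 529 and 529 RPM, a log2 fold change of -3.90 ± 0.13. The study describes an intronic Arpc1a TSS whose shortened product is unlikely to join that complex, and the annotated upstream TSS was not analysed here, so these values do not give the level of the full-length subunit transcript. Of the other genes that the study took up, Gas7 was at 341 and 329 against 575, 554 and 487 RPM, a log2 fold change of -0.68. The TSS analysed of Ddr1, a collagen receptor, was lower by -1.34, and Chn2, a Rac-regulating protein, was higher by 1.84 with a call that was lost under most alternatives.

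**Figure D2:**
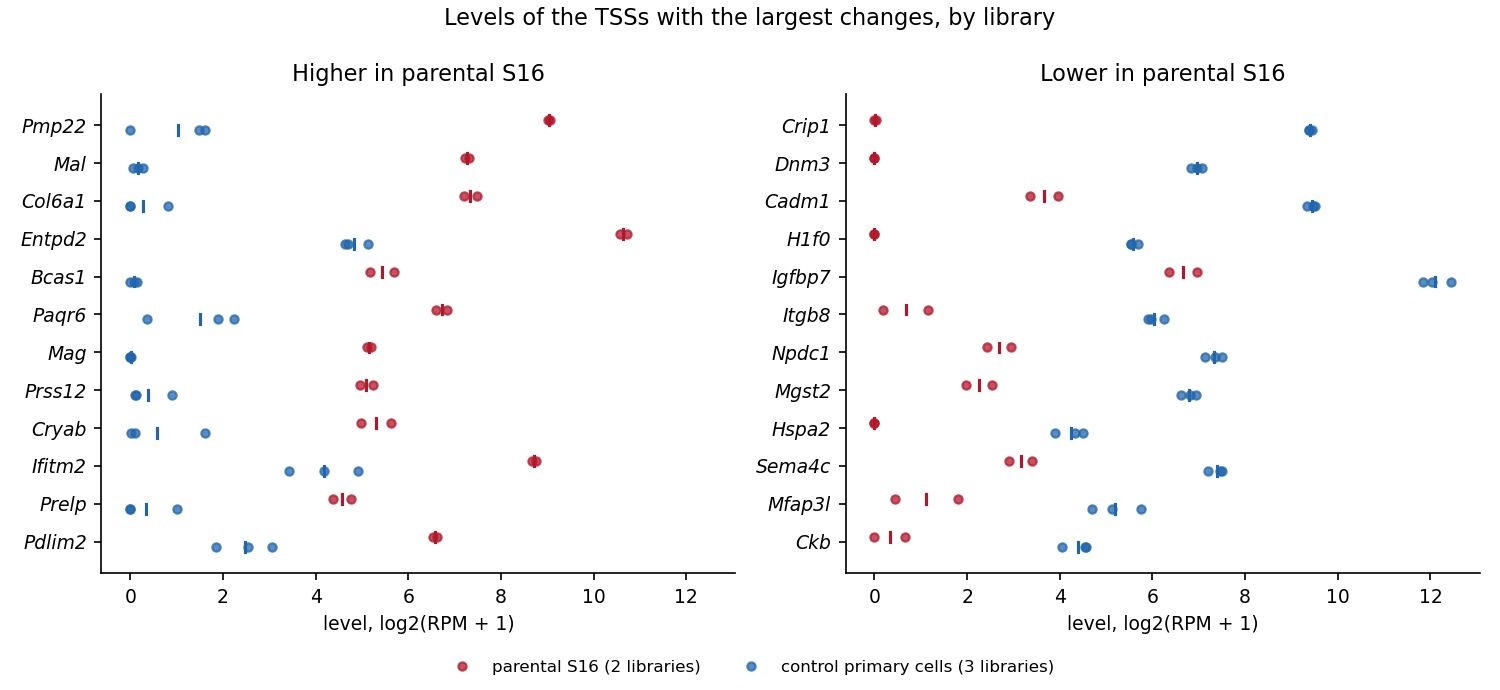
Each point is 1 library, with its level in log2(RPM + 1) on the x axis, for the 12 genes with the largest increase (left) and the 12 with the largest decrease (right) in parental S16 cells. Vertical bars are group means, and in each gene the 2 S16 libraries (red) and the 3 control libraries (blue) lie apart, as the rule for naming these genes required.

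The promoters of 4 of these genes are shown because they are among the largest changes in each direction. That of Mal, whose increase was larger than that of Col6a1, is not printed because of the strand difference given above. They are RefSeq sequences of the GRCr8 build from 250 bases before to 50 bases after the annotated start, on the strand of the gene, and were not matched to the rn5 TSS positions above. In that build they span chr10:48294682-48294981 on the plus strand for Pmp22, chr20:11905440-11905739 on the plus strand for Col6a1, chr6:138053618-138053917 on the plus strand for Crip1 and chr13:77371297-77371596 on the minus strand for Dnm3. Capitals mark an AP-1 type motif, TGANTCA.
Pmp22: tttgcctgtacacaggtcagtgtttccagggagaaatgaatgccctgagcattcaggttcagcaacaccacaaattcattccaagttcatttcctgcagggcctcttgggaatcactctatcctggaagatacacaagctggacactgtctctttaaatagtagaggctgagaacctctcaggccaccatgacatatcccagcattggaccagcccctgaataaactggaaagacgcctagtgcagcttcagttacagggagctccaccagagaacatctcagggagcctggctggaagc
Col6a1: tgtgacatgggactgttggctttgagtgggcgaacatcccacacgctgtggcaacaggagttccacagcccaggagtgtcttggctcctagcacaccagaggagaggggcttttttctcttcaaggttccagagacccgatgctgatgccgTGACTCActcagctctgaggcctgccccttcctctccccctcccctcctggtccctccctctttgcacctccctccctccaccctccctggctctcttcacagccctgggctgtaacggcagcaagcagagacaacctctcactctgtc
Crip1: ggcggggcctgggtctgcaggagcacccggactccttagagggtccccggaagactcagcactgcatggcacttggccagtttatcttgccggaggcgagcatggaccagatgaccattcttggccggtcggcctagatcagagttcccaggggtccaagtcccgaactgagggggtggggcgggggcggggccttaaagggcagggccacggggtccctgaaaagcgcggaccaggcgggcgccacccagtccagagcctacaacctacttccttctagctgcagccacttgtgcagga
Dnm3: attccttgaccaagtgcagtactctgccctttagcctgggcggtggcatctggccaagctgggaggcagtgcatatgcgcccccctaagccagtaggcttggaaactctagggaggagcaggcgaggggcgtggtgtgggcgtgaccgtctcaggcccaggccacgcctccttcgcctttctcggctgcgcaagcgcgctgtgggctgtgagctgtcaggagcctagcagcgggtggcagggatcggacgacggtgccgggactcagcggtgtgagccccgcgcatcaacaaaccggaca
The motifs searched on both strands were TGANTCA, the SOX-type letters ACAAAG or ACAATG, and the TATA box TATAAA. Among 33469 RefSeq promoters of 300 bases, 7.33%, 29.1% and 14.2% hold them. Of the 4 promoters printed, that of Col6a1 held a TGANTCA match at position -99 from the start, and the other 3 held none of these motifs. The Mal promoter also held a TGANTCA match, at position -116. A match is not a binding site, and the absence of these letters from the window says nothing about a factor.

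Further gene lists were described by their main TSSs, beside 2.29% large and higher and 4.41% large and lower of all main TSSs, 14.1% called higher and 26.4% called lower, and a median of -0.23. The median of the antigen presentation and interferon list was 1.16 over 8 genes, with no large decrease and 2 large increases. They were Ifitm2 and Psmb9, an immunoproteasome subunit at 46.5 and 51.3 against 9.82, 1.01 and 8.48 RPM. The call of Psmb9 was lost without either S16 library. B2m, the light chain of MHC class I, was called higher by 0.94, and Irf3, an interferon regulatory factor, lower by -1.39.

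All 4 caveolar genes tested were called higher, beside 14.1% of all main TSSs, with a median of 0.98. Cav1, the main coat protein of caveolae, was at 15.8 and 9.31 RPM in S16 cells against 0, 0.856 and 0.272 RPM and was the large one, at 3.30. Its partners Ehd2, Cavin1 and Cavin3 were higher by 1.15, 0.80 and 0.40, and lost their calls without either S16 library.

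Growth and stress genes showed few large changes. Of 16 cell cycle and replication genes, 6 were called higher and 1 lower, with a median of 0.07 that ranged from 0.00507 to 0.124 with each library left out. The large one was Rfc4, a loader of the replication clamp, at 47.6 and 58.0 against 18.1, 6.98 and 11.9 RPM, which lost its call without either S16 library. The clamp gene Pcna was higher by 1.12. Among 10 CDK inhibitor and growth arrest genes, the stress-induced Gadd45a was large and lower, at 95.8 and 71.8 against 374, 300 and 371 RPM. The list median was 0.47, and 0.0647 with main TSSs chosen by their level in the compared groups.

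Immediate early genes had a median of 0.19 over 11 genes, with Jun lower and Dusp6, a phosphatase that restrains ERK, higher at 72.2 and 48.8 against 5.79, 4.84 and 8.98 RPM. That median was -0.252 without the first S16 library and 0.638 without the second, so its direction rested on a single library. Oxidative stress and iron genes had a median of 0.21 over 14. In that list the heme-degrading enzyme Hmox1 was at 135 and 125 against 13.4, 19.2 and 23.0 RPM, while the glutathione transferase Mgst2 was the large decrease. Of 17 unfolded protein response genes, only Xbp1 was large, lower at 16.7 and 8.24 against 56.6, 125 and 64.0 RPM, with a call that was lost without the second S16 library. The list median of -0.21 was -0.00 under TMM scaling.

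Metabolic and housekeeping lists held a single large change. None of 44 cytosolic ribosomal protein genes was large, 18 were called higher and 5 lower, and their median was 0.16, or 0.246 without the first S16 library. Rpl13 was the most increased, at 4920 and 5079 against 2526, 2153 and 2356 RPM. None of 46 oxidative phosphorylation genes was large, 14 were higher and 15 lower, and the median of -0.11 turned to 0.09 under TMM scaling and was -0.00193 without the first S16 library. Cholesterol and fatty acid synthesis (18 genes) also had none, and its median of 0.14 ranged from 0.0675 to 0.338 with each library left out. Glycolysis genes had a median of 0.36 over 7, with Gapdh higher at 1510 and 1380 against 563, 515 and 530 RPM and the kinase Pdk2 large and lower by -2.29.

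The remaining lists had at most 1 large change in each direction. Proteasome genes had a median of 0.21 over 18 and lysosome genes of -0.16 over 16, which was 0.05 under TMM scaling and -0.0194 without the second S16 library. Ctsc, a lysosomal protease, was the large increase of the latter, at 88.0 and 79.5 against 11.3, 10.3 and 5.52 RPM. Actin and intermediate filament genes had a median of -0.14 over 27, which was 0.06 under TMM scaling, -0.372 without the first S16 library and 0.176 without the second. In that list the Arpc1a TSS was large and lower and the calponin Cnn2 was higher by 2.11. Vim was called lower, at 6183 and 5767 against 15370, 14062 and 14529 RPM. Small heat shock proteins (4 genes) had a median of 0.38 and circadian genes (3 genes) of -0.90, with no large main TSS in either. Outside that rule, the only tested TSS of Nr1d1, a repressor in the circadian clock, was large and lower, at 0 and 0.311 against 8.28, 14.7 and 5.58 RPM. With main TSSs chosen by their level in the compared groups the circadian median was -1.61. Without the third control library the small heat shock and circadian medians were 0.59 and -1.34, and the circadian median was -0.53 without the second.

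Of the marker lists, the fibroblast list had 2 genes tested, Col1a1 and Gsn, the latter at 104 and 76.0 against 116, 129 and 115 RPM. Cd48 was the leukocyte marker tested, at a log2 fold change of -0.12. Pdgfrb, the mural marker tested, was at 1.54 with an adjusted p of 0.064 by limma. The IGF-binding protein list had 2 genes tested, of which Igfbp7 was large.

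**Figure D3:**
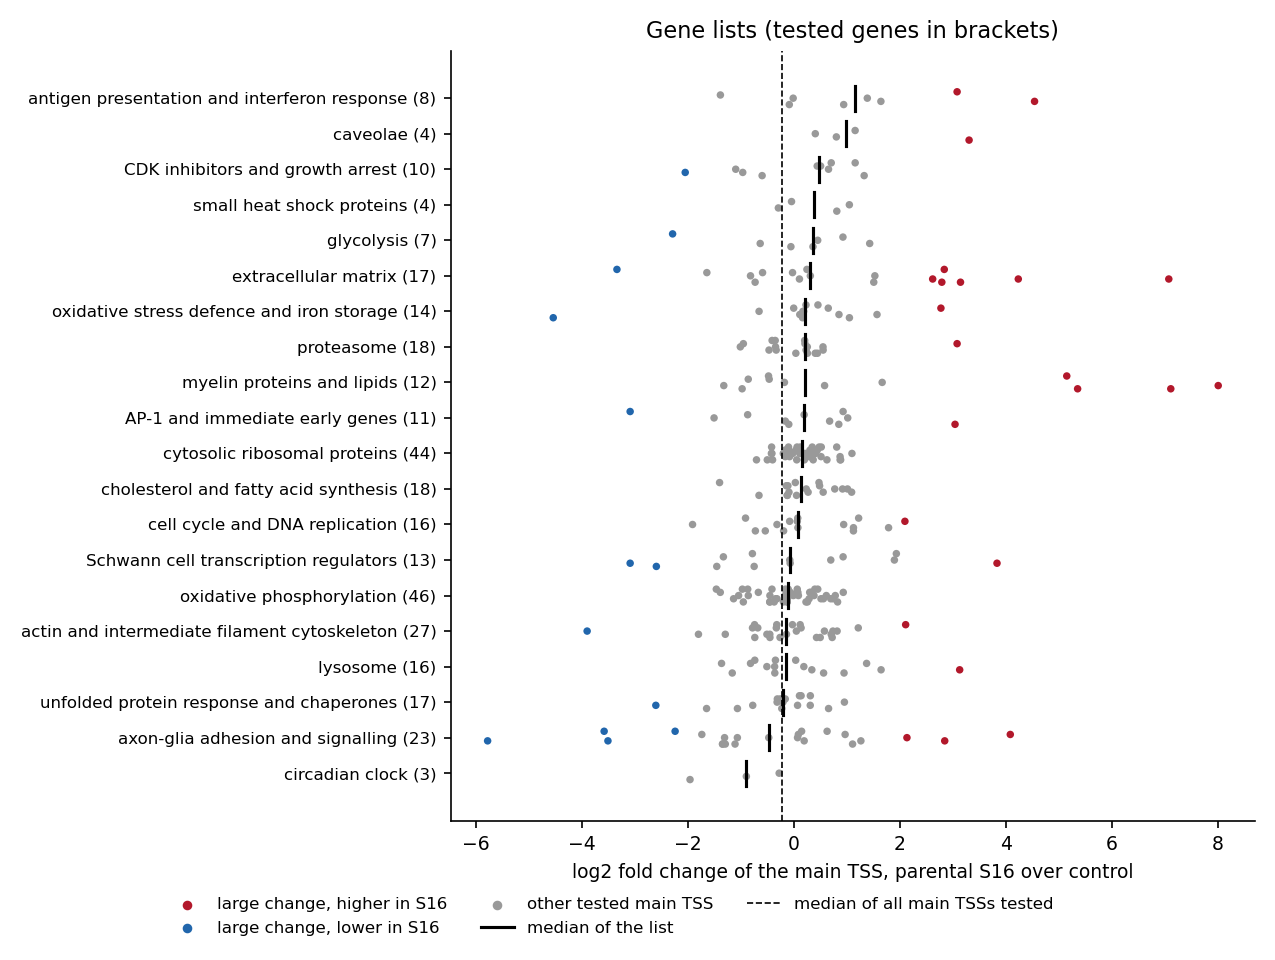
Each point is the main TSS of 1 gene, with its log2 fold change of parental S16 over control cells on the x axis, for the 20 lists with at least 3 genes tested. Red and blue points are large changes to higher and lower levels, black bars are list medians, and the dashed line is the median of -0.23 over 2790 main TSSs.

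TSS use within genes was compared over 438 genes with at least 2 tested TSSs. A shift was called where limma's Simes p, adjusted over the genes, was under 0.05 and a TSS changed its share of the gene total by at least 25 percentage points, with at least 10 RPM for the gene in both groups. Of these genes 13 (2.97%) were called. The number fell to 2 without the first S16 library and to 1 without the second. Npdc1 was called with any library left out, and Raly, Nr4a1 and Sphk2 with any control library left out.

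In Npdc1, a gene of neural differentiation, the TSS at chr3:2609116-2609268 took 37.2% and 45.9% of the gene total in S16 cells and 4.75%, 4.16% and 3.67% in control cells by limma's Simes test with an adjusted p of 4.15e-06. Its own level was alike, at 29.1 and 30.8 against 35.6, 28.9 and 25.1 RPM, a log2 fold change of 0.02. The TSS at chr3:2606392-2606484 fell to 44.9 and 29.6 from 554, 486 and 519 RPM. The shift in share thus came with the loss of the upstream TSSs.

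In Raly, which encodes an RNA-binding protein, the TSS at chr3:156695452-156695486 took 80.9% and 77.6% in S16 cells and 21.5%, 8.15% and 3.75% in control cells by limma's Simes test with an adjusted p of 0.0137. The other Raly TSS was at 1.38 and 3.37 against 32.2, 74.4 and 28.0 RPM. Nr4a1, an orphan nuclear receptor, shifted the other way at chr7:140719068-140719126, from 63.5%, 41.7% and 59.1% in control cells to 14.6% and 3.81% in S16 cells. In both genes every S16 library lay outside the range of the control libraries.

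Fxyd1, which encodes phospholemman, a regulator of the sodium pump, moved to its TSS at chr1:90643267-90643364, with 89.1% and 95.0% against 51.3%, 46.4% and 42.9%. The largest shifts of Anapc15, Grk4, Gnb2 and Utrn were 50.9, -41.5, -36.3 and -36.3 percentage points. Pmp22 passed the adjusted Simes p at 1.01e-09 but changed no share by more than 7.55 points, with the downstream TSS holding most of the gene total of 6687 RPM in S16 cells and 471 RPM in control cells. Of 73 genes with a large change and at least 2 tested TSSs, 46 had all their TSSs moving with the same sign. The same count over all genes with at least 2 tested TSSs is not given here. Whether 46 is high or low for such genes was therefore not tested.

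**Figure D4:**
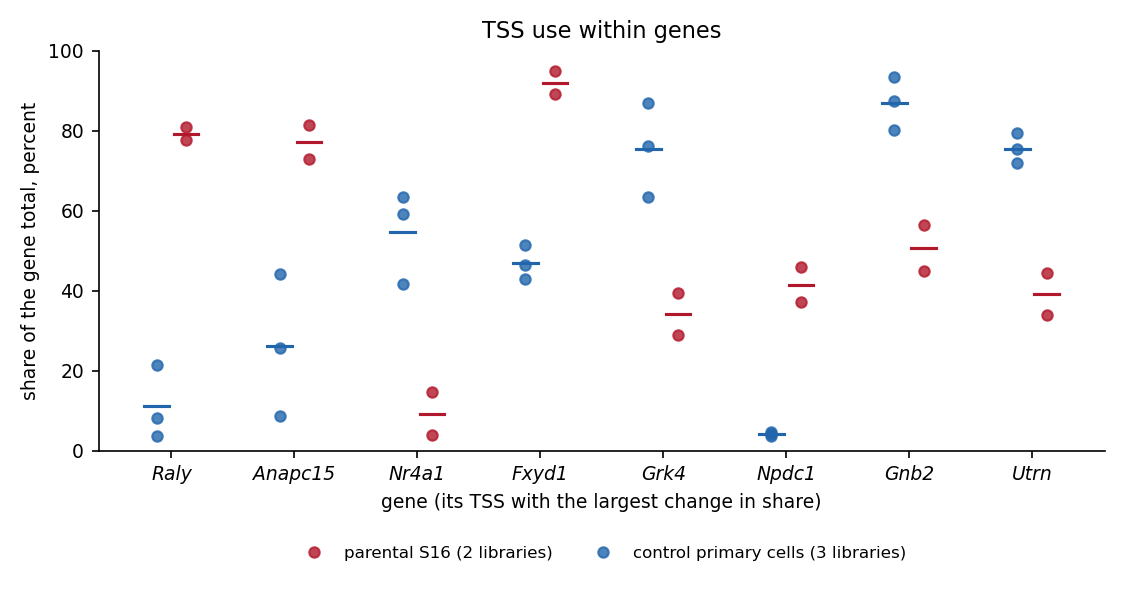
For 8 genes called for TSS use, each point is the share in percent of the gene total, in 1 library, at the TSS with the largest change in share. Horizontal bars are group means, with the 2 S16 libraries in red and the 3 control libraries in blue. The libraries do not overlap in any of the 8, which the choice of the largest called shifts favours.

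Levels also differed by chromosome. With 1 main TSS per gene, the median log2 fold change was -0.82 on chromosome 14 (102 genes), -0.81 on 18 (71 genes), -0.77 on 6 (140 genes), -0.69 on 8 (169 genes) and -0.68 on 17 (69 genes). At the other end it was 0.17 on chromosome 4 (149 genes), 0.19 on 7 (206 genes) and 0.24 on X (29 genes), against -0.23 for all. On chromosome 14, 85.3% of genes were negative, against 61.6% of all genes. There 16 of 102, or 15.7%, were large and lower, while 4.41% of all main TSSs were. Igfbp7 and Xbp1 lie on that chromosome.

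Both S16 libraries showed these levels. On chromosome 14 the median difference from the control mean was -0.76 and -0.84, on 18 it was -0.83 and -0.84, and on X it was 0.43 and 0.36. The medians of the 3 control libraries lay between -0.07 and 0.06 on every chromosome. When each chromosome's median was subtracted before the fit, 138 TSSs were large and higher and 118 large and lower. Why chromosomes differed was not tested.

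The same chromosomes were set beside libraries that enter neither group. The difference of the ΔSOX10 clones from cAMP-treated primary cells had a median of -0.70 on chromosome 14, -0.87 on 18, -0.84 on 6, -0.73 on 8 and -0.49 on 17, against -0.39 for all genes. It was 0.13 on chromosome 4, 0.10 on 7 and -0.07 on X. On chromosome 15 the values were 0.02 for parental S16 over control cells and -0.71 for ΔSOX10 clones over cAMP-treated cells, and on chromosome 10 they were -0.07 and -0.53. The clones derive from the parental line and were read on the same kind of sequencer, so these values are not independent of the line.

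**Figure D5:**
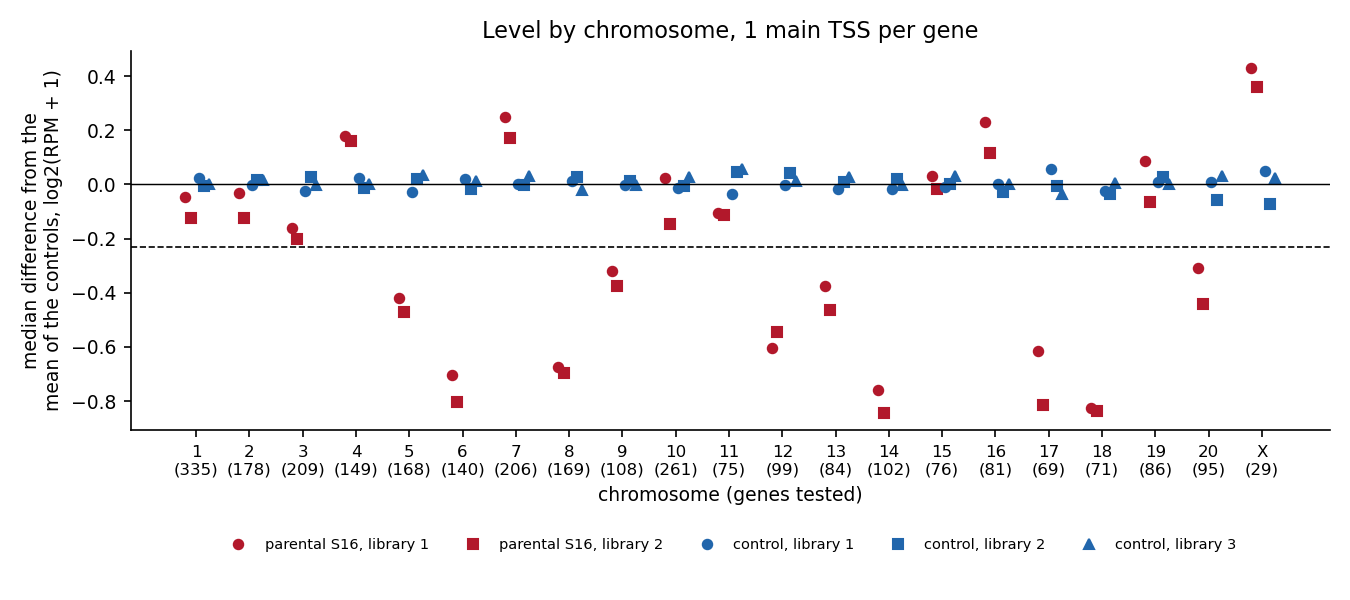
For each chromosome, with the number of genes in brackets, points give the median difference of 1 library from the mean of the controls in log2(RPM + 1), using 1 main TSS per gene. The 2 S16 libraries (red) lie close together and the 3 control libraries (blue) lie near 0, and the dashed line is the median of -0.23 over all genes.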

How the data were processed

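The authors trimmed reads, mapped them to the rat genome rn5, clustered 5′ ends and deposited 1 table of RPM per TSS and library. The submitters' processing notes name cutadapt 1.14, STAR 2.5.2a, SAMtools 1.9, Subread 1.6.1 (featureCounts) and edgeR 3.24.3. The table's log2 fold changes and FDR values are the authors' edgeR comparisons and were not used. No sample column was left out.

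TSSs above 1 RPM in at least 2 of the 5 libraries were tested on log2(RPM + 1) with limma 3.58.1 (moderated by eBayes with an intensity trend, two-sided) in R 4.3.3, with Benjamini-Hochberg adjustment over the 3972 TSSs. TSS use was tested with diffSplice and Simes p-values. RPM values are multiples of 1 read, so whole reads were recovered for edgeR 4.0.16 and DESeq2 1.42.0 as alternatives. Within 0.1 of a read, 93.6% and 93.2% of the S16 values above 0 came out whole, since 9.07% and 9.35% of them were rounded to 3 digits, and 100% of the control values did. Intervals are not given, and the floor of 3 reads covers counting error only.

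The comparison, the gene lists and the rules were chosen with earlier results of these data known. Named genes are the 12 in each direction with the largest fold change among large changes with a symbol, no overlap between groups and at least 10 RPM in the higher group. To these were added genes that the study discusses, the cell type markers, up to 4 members of each list, and the 8 largest shifts in TSS use, of which some are not reported here. Other TSSs named beside them, and Crip2, Car11, Egfl8 and Nr1d1, were chosen after their values were seen.

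On simulated data for this comparison, with 200 changed TSSs among 3972, the fit recovered 170 (85%), with 3 false calls. It recovered 100% at a log2 change of 3 and 42% at a log2 change of 1. The TSSs changed all had a mean of at least 10 RPM, 1 noise setting served all TSSs, and the groups had no offset in scale. In the data, 80 of the 111 higher and 132 of the 166 lower large changes reached 10 RPM in the higher group. Recovery of weaker TSSs was thus not tested. In the same test over 438 genes the TSS use rule called 9 of 40 with 1 changed TSS and none of 358 left unchanged. Other scalings, filters, pseudocounts, thresholds, models, a replicate block, each library left out, sums per gene and, after seeing the data, TSSs with unrounded values and chromosome-centred values were tried.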

Additional observations from a re-analysis of the deposited data

How the results depend on the processing

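Of 43 named TSSs with a large change, 731 alternative values were computed, of which 725 kept direction and call, 6 lost the call and none changed sign. The number of large changes to higher levels was 37 with a pseudocount of 5 RPM, 63 with RPM summed per gene, 311 and 45 at log2 thresholds of 1 and 3, and 64 to 124 with each library left out. The number to lower levels was 68 with a pseudocount of 5 RPM, 557 and 44 at log2 thresholds of 1 and 3, 108 by edgeR without rounded TSSs, and 139 to 177 with each library left out. By adjusted p alone, lower TSSs numbered 576 by edgeR, 423 by edgeR without rounded TSSs and 567 after chromosome medians were subtracted. Leaving out each library gave 440 to 785 of them, and 245 to 497 higher ones. The whole median was -0.00897 under TMM, 0.00145 under median-ratio scaling, -0.16 without a filter, -0.23 at a mean of at least 5 RPM, -0.13 with a pseudocount of 5 RPM, and -0.21 to -0.16 with each library left out. DESeq2 called 164 and 223 large changes.

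Genes called for TSS use numbered 6 with a pseudocount of 0.1 RPM, 5 at a threshold of 40 points, and 1 to 10 with each library left out. With a replicate block, 7 genes were called for TSS use, and large changes numbered 108 higher and 174 lower. Control library 3 has no partner, and same-numbered libraries deviated together with a correlation of only 0.03 and 0.02, so the numbers are names and not pairs.

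Changes of sign were few. Cd48, at -0.12, was 0.0859 under TMM, 0.0966 under median-ratio scaling, 0.0684 by edgeR, 0.0974 by DESeq2 and -0.25 to 0.0159 with each S16 library left out. The main TSS of Cnp, at -0.18, was 0.0257, 0.0365, 0.00702 and 0.0361 under the first 4 of these. Phlda3, of the CDK inhibitor and growth arrest list, at 1.33, was -0.28 with its RPM summed per gene. The medians of 5 lists changed sign under TMM. The cause of these changes was not tested. Depth limits values near 1 read, worth 0.0226 and 0.0259 RPM in the S16 libraries.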

Other observations

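Within 20 kb of each other, 4 pairs of TSSs of different genes had large changes, and in 3 of the pairs the nearest such TSSs differed in direction. A TSS of Entpd2 and one of Npdc1 lie 3325 bases apart on the same strand of chromosome 3, at log2 fold changes of 4.59 and -4.63. All 4 Entpd2 TSSs tested were positive, and of 3 Npdc1 TSSs 2 were large and lower and the other was at 0.02. TSSs of Fxyd1 and Lgi4, 4429 bases apart on chromosome 1, were at -2.60 and 2.19. Over the whole gene Fxyd1 was at 55.6 RPM in S16 cells and 60.6 RPM in control cells, with another TSS at 0.82, and the 7 TSSs of Lgi4 ranged from -1.31 to 2.19. The TSS of Cirbp, the cold-inducible RNA-binding protein, was at -2.31 beside a weak TSS of RGD1562114 at 2.06, whose main TSS was at 0.95. TSSs of Chd2 and 1810026B05Rik were both lower, at -2.14 and -2.52, while another Chd2 TSS was at 0.33. These pairs were picked after their values were seen.

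Some abundant transcripts outside the lists also had large changes, again picked after their values were seen. Malat1, a nuclear long non-coding RNA, was at 1029 and 946 RPM in S16 cells against 4095, 5509 and 5816 RPM in control cells, and at 13428 RPM in nerve. Plk2, a stress-responsive kinase, was at 62.6 and 81.6 against 848, 907 and 809 RPM, a log2 fold change of -3.56. Fkbp1a, an immunophilin, was at 206 and 166 against 1324, 1392 and 1224 RPM, a log2 fold change of -2.82.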
